A study of Homo sapiens with 5 samples.

Results

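The 4 siRNA transfections of HEK293 cells, taken as one group, were set against the mock transfection of the same experiment, so 4 of the 5 samples form the group and the remaining 1 is the mock. All 5 came from HEK293 cells of the T-REx Flp-In kind, derived from human embryonic kidney and built to take up an inducible transgene, here FLAG-tagged DICER1, and all are labelled 18 h. The group holds DICER1 siRNA 1, DICER1 siRNA 2, DROSHA siRNA 1 and DROSHA siRNA 2, each a different siRNA with 1 library, and the mock is labelled a control sample. The labels do not give what the mock transfection contained, whether it carried an siRNA, or whether the DICER1 transgene was induced. Poly(A) RNA was extracted with TRIZOL and made into TruSeq libraries for the HiSeq2000. Separate cultures are not mentioned in the labels, so the p-values reflect only how these libraries spread, which may be technical.

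DROSHA cuts microRNA precursors out of nuclear transcripts, and DICER1 then cuts the exported hairpins into mature microRNAs, which guide silencing complexes to matching sites in mRNA 3' UTRs. Where one of these enzymes is missing, most microRNAs are no longer made. Cells can also respond to a transfection itself, among other ways through the unfolded protein response, which raises chaperones of the endoplasmic reticulum, and through immediate early genes. The mock is a transfection too, so such a response may be present on both sides, and it was not tested here. Against the mock, the 4 siRNA libraries share a lower mRNA level of a microRNA enzyme, the presence of an siRNA and 1 mock library that stands under every ratio, and these cannot be told apart here.

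The libraries held between 7620206 and 8736455 counts over the siRNA group and 8497016 counts in the mock, and the 10 most abundant genes took between 2.9% and 2.96% of each. Of 18257 genes, 2602 had no read and 12234 passed the filter of 1 CPM in at least 2 libraries. CPM are read counts relative to the TMM-scaled library size, and are given in the order siRNA 1, siRNA 2. Of 8 genes that mark the HEK293 line, among them VIM, LIN28B and NEFL, 7 reached 1 CPM in every library, NEFM falling to 0.96 CPM in 1. Their summed level was 878 to 1060 CPM in the siRNA libraries and 928 CPM in the mock. Of 13 measured markers of other cell types 9 stayed under 1 CPM in every library, PTPRC, CD68 and INS at 0, while EPCAM, HBB, MBP and COL1A1 were detected in all 5, with sums of 116 to 138 CPM in the siRNA libraries and 137 CPM in the mock.

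The mock was no farther from the siRNA libraries than they were from each other. Over the 9680 genes that averaged 10 CPM or more, the median absolute log2 ratio lay between 0.092 and 0.122 in the 4 pairs of an siRNA library with the mock. It was 0.086 between the DICER1 siRNAs, 0.119 between the DROSHA siRNAs and 0.095 to 0.132 between libraries with different targets. Differences exceeded counting noise in every pair, with a chi-square per degree of freedom of 3.43 to 7.8 for pairs with the mock and 2.73 to 10.1 among siRNA libraries. DROSHA siRNA 2 stood apart: all 4 pairs that contain it had a median absolute ratio of 0.119 or more, and it had 57 genes over 2-fold from the mock, against 4, 37 and 11 in DICER1 siRNA 1, DICER1 siRNA 2 and DROSHA siRNA 1. Counts that lead the text are therefore also given without it.

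**Figure D1:**
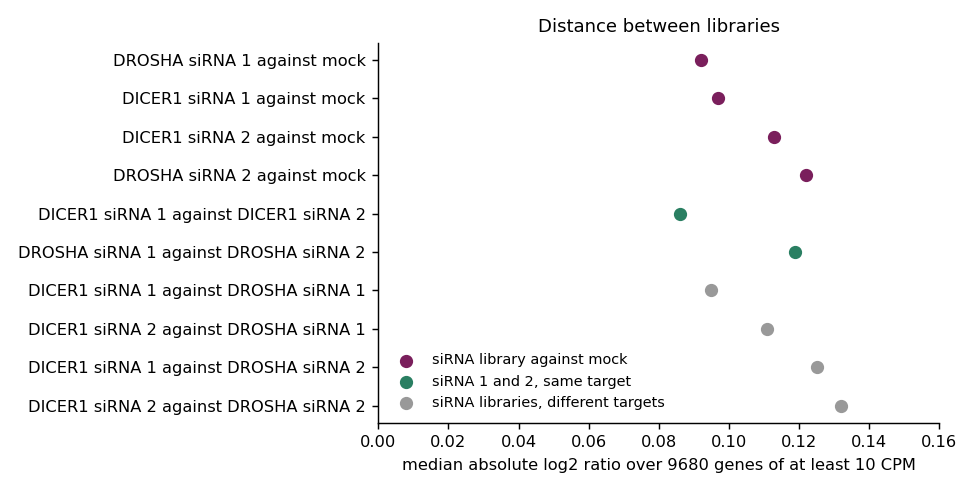
Distance between each pair of the 5 libraries, as the median absolute log2 ratio over the 9680 genes that averaged 10 CPM or more. Each point is 1 pair: an siRNA library with the mock (0.092 to 0.122), the siRNA 1 and 2 libraries of one target (0.086 and 0.119), or siRNA libraries of different targets (0.095 to 0.132).

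The targeted genes check the labels and show what pooling the 4 libraries does. DICER1 stood at 74.1 and 67.7 CPM in the DICER1 libraries, 282 and 333 CPM in the DROSHA libraries and 243 CPM in the mock. DROSHA stood at 194 and 193 CPM in the DICER1 libraries, 41.2 and 41.9 CPM in the DROSHA libraries and 191 CPM in the mock. Each enzyme's mRNA was low in its own pair of libraries and near or above the mock in the other pair, so neither gene lay on one side of the mock in all 4. In the pooled comparison DICER1 had a log2 fold change of -0.36 ± 0.81 (SE, unadjusted p = 0.668), and DROSHA a log2 fold change of -0.70 ± 0.81 (SE, unadjusted p = 0.415), in edgeR's quasi-likelihood test. The counts do not separate native DICER1 reads from those of the tagged copy. DGCR8, which binds RNA beside DROSHA and whose mRNA has a hairpin open to cutting by it, was the member of this trio that lay above the mock in all 4. It stood at 129 and 132 CPM in the DICER1 libraries, 188 and 173 CPM in the DROSHA libraries and 122 CPM in the mock, with a log2 fold change of 0.35 ± 0.22 (SE, unadjusted p = 0.144).

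No gene passed the pooled test. edgeR's quasi-likelihood test called 0 of 12234 genes (0%) in either direction at an adjusted p under 0.05, the smallest adjusted p was 0.9998, and 369 genes (3.02%) had an unadjusted p under 0.05, of which 247 were higher and 122 lower. edgeR's likelihood ratio test and DESeq2 also called 0. The fit has 3 residual degrees of freedom, assumes that the mock varies like the siRNA libraries and counts differences between DICER1 and DROSHA siRNA as spread. For a single gene, an exact permutation test of 4 libraries against 1, with its one-sided p doubled, cannot go below p = 0.4. Everything below is therefore a description of levels in these 5 libraries, and each gene named has an adjusted p of 0.9998 in edgeR's test.

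Genes above the mock in all 4 libraries, and genes below it in all 4, were each fewer than genes above it in 1, 2 or 3. Most of them lay close to the mock. Of the tested genes 2378 (19.4%) were higher than the mock in all 4 siRNA libraries and 2332 (19.1%) were lower in all 4. The other 7524 were mixed, among them 1164 with the DICER1 pair on one side and the DROSHA pair on the other. Genes above the mock in 0, 1, 2, 3 and 4 of the siRNA libraries numbered 2332, 2596, 2508, 2420 and 2378, an almost even spread. Without DROSHA siRNA 2, 3211 genes (26.2%) were higher and 3232 (26.4%) lower in the remaining 3, by rounded ratios that keep the scaling of all 5 libraries. The list counts without that library use the same ratios. With the remaining libraries scaled anew the counts were 3221 and 3246.

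How far a one-sided gene lay from the mock was read from its nearest ratio, the ratio to the mock of whichever of the 4 libraries came closest to it. The median nearest ratio was 1.05-fold among the genes higher in all 4 and 0.961-fold among the genes lower in all 4. On the log2 scale 1488 of the higher and 1669 of the lower genes had a nearest ratio under 0.1 in size. The edge of the rule was read among genes that averaged 10 CPM or more, of which 1908 were higher in all 4. Of these 362 had a nearest ratio under 0.02, and 337 genes higher in 3 missed the rule by less than 0.02 in the library that fell short.

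Larger distances were rarer, and among the genes that passed the filter more of them were upward. Past a log2 ratio of 0.32 in every library, which is 25% above the mock or 20% below it, there were 158 genes higher (1.29% of those tested) and 83 lower (0.678%), past 1.5-fold 42 and 10, and past 2-fold 8 and 1. With any 1 siRNA library left out, the remaining 3 passed that limit in 195 to 259 genes upward and 126 to 182 downward. Without DROSHA siRNA 2 the counts were 259 and 149. The filter of 1 CPM in at least 2 libraries can pass a gene on the siRNA libraries alone, but not on the mock alone. Without a filter 349 genes were past that limit upward and 452 downward, so the upward lean did not hold once genes of the fewest reads were counted. At a mean of at least 5 CPM the lean was upward, with counts of 67 and 24. Of the 158 higher and 83 lower genes past 0.32 with the main filter, 118 and 69 were among the 3059 genes of the lowest levels, up to 13.3 CPM. The 9 genes past 2-fold in every library all had few reads. INHBA, which encodes a subunit of activins, had 25, 31, 28 and 25 counts in the DICER1 and DROSHA siRNA libraries and 11 in the mock. PTHLH, a secreted hormone-like peptide, had 17, 22, 20 and 15 counts in the siRNA libraries and 7 in the mock. TMEM169 was the 1 gene lower by that much, with 7, 6, 9 and 6 counts in the siRNA libraries and 20 in the mock. CDK11A, with 17, 16, 21 and 14 counts in the siRNA libraries and 4 in the mock, is uncertain because the near-identical CDK11B can share its reads. ASB14, KIAA1045, PIWIL2, RYR1 and SPATA25 had no more than 2 counts in the mock.

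**Figure D2:**
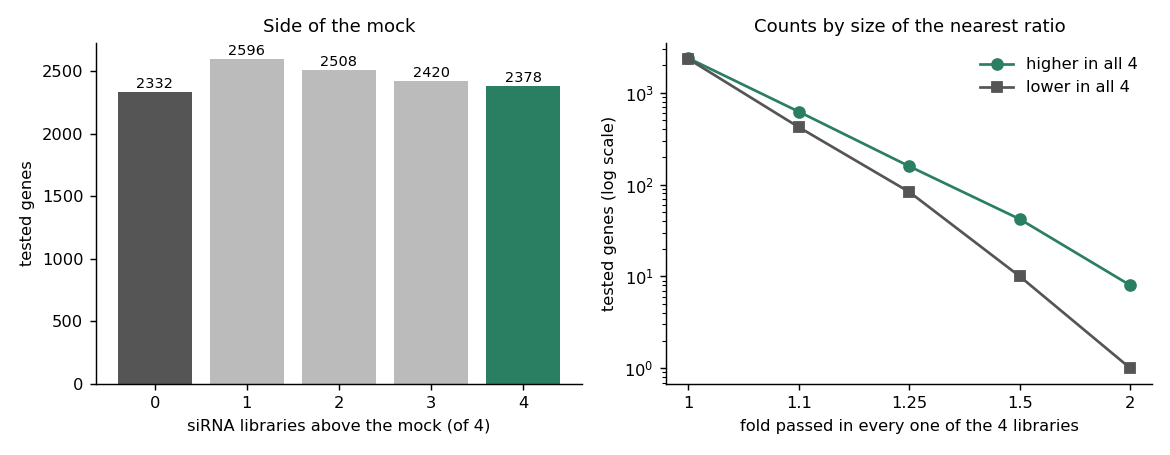
Left, tested genes by the number of siRNA libraries, of 4, in which they lay above the mock, from 2332 genes in none to 2378 in all 4. Right, genes higher or lower than the mock in all 4 libraries by the fold passed in every one of them, on a log scale, from 2378 and 2332 at any distance to 8 and 1 at 2-fold.

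Among genes that averaged 10 CPM or more, 1908 were higher and 1830 lower in all 4 libraries, and the 12 of each direction with the largest nearest ratio are described here, none past the test. The leading gene upward was DNAJB9, a J-domain co-chaperone of the endoplasmic reticulum that the unfolded protein response induces. It stood at 29.8 and 32.97 CPM in the DICER1 libraries, 31.00 and 35.6 CPM in the DROSHA libraries and 19.1 CPM in the mock, a log2 fold change of 0.76 ± 0.14 (SE, unadjusted p = 0.00105). Its lowest siRNA library was 1.55-fold above the mock, and the siRNA libraries averaged 32.3 ± 2.51 CPM (SD, n = 4).

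NR1H2, the liver X receptor beta, a nuclear receptor for oxysterols, stood at 49.9 and 52.5 CPM in the DICER1 libraries, 62.7 and 72.7 CPM in the DROSHA libraries and 33.5 CPM in the mock, a log2 fold change of 0.82 ± 0.22 (SE, unadjusted p = 0.00607). Its levels in both DROSHA libraries were above those in both DICER1 libraries, and all 4 were above the mock. SLC2A3, a glucose transporter, varied little among siRNAs, at 14.4 and 14.4 CPM in the DICER1 libraries, 15.04 and 13.6 CPM in the DROSHA libraries and 9.16 CPM in the mock, a log2 fold change of 0.65 ± 0.16 (SE, unadjusted p = 0.00425). SLC6A9, the plasma membrane glycine transporter, varied more, at 20.9 and 26.4 CPM in the DICER1 libraries, 16.3 and 13.9 CPM in the DROSHA libraries and 9.39 CPM in the mock, with higher levels in the DICER1 pair. The cation channel gene HCN2 stood at 24.7 and 22.02 CPM in the DICER1 libraries, 19.5 and 20.9 CPM in the DROSHA libraries and 13.7 CPM in the mock. CNTNAP1, an axonal adhesion protein, stood at 15.4 and 16.4 CPM in the DICER1 libraries, 13.3 and 11.6 CPM in the DROSHA libraries and 8.32 CPM in the mock, and with SLC6A9 and HCN2 it was highest in the DICER1 pair.

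ARRDC3, an arrestin-domain protein that acts in receptor trafficking, stood at 22.2 and 19.7 CPM in the DICER1 libraries, 19.5 and 21.8 CPM in the DROSHA libraries and 13.9 CPM in the mock. The Polycomb protein gene CBX7 stood at 17.9 and 18.6 CPM in the DICER1 libraries, 18.2 and 16.8 CPM in the DROSHA libraries and 12.1 CPM in the mock. The siRNA libraries lay within a narrow band for both genes, above the mock. Of the other 4, SLC10A3, AGFG2, PLA2G6 (a phospholipase A2) and SMPD1 (the lysosomal acid sphingomyelinase), the lowest siRNA library was 1.36-fold above the mock in each, and the thirteenth gene would have been at 1.35-fold.

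Chosen by p in place of distance, DNAJB9 and SLC2A3 came up again beside 4 other genes. MINK1, a Ste20-family kinase and a member of the miR-17-92 target list below, stood at 109.8 and 114 CPM in the DICER1 libraries, 105 and 122 CPM in the DROSHA libraries and 78.5 CPM in the mock, a log2 fold change of 0.52 ± 0.11 (SE, unadjusted p = 0.00181). VPS37B, an ESCRT-I subunit of endosomal sorting, stood at 62.8 and 62.7 CPM in the DICER1 libraries, 63.3 and 63.2 CPM in the DROSHA libraries and 46.4 CPM in the mock, the 4 siRNA libraries differing by less than 1 CPM, a log2 fold change of 0.44 ± 0.10 (SE, unadjusted p = 0.00212). IMPDH1, which makes guanine nucleotides, stood at 226 and 244 CPM in the DICER1 libraries, 222 and 261 CPM in the DROSHA libraries and 173 CPM in the mock. BCAT2, the mitochondrial branched-chain aminotransferase, stood at 114 and 120.2 CPM in the DICER1 libraries, 109.5 and 129 CPM in the DROSHA libraries and 84.3 CPM in the mock. In IMPDH1 and BCAT2 the second siRNA of each target gave the higher level.

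Downward, MAP1A, a microtubule-associated protein, was farthest from the mock in its nearest library. It stood at 14.7 and 14.1 CPM in the DICER1 libraries, 10.6 and 13.9 CPM in the DROSHA libraries and 22.9 CPM in the mock, a log2 fold change of -0.79 ± 0.19 (SE, unadjusted p = 0.00329). NEK7, a kinase of mitosis and of the NLRP3 inflammasome, stood at 42.02 and 46.7 CPM in the DICER1 libraries, 77.95 and 72.2 CPM in the DROSHA libraries and 108 CPM in the mock, a log2 fold change of -0.85 ± 0.30 (SE, unadjusted p = 0.024). The groups of libraries did not overlap with the mock or with each other: the DICER1 pair was lowest, the DROSHA pair between, and the test of DICER1 against DROSHA libraries gave an edgeR adjusted p of 0.158. FSTL1, a secreted glycoprotein, stood at 110.3 and 68.3 CPM in the DICER1 libraries, 121 and 55.8 CPM in the DROSHA libraries and 164 CPM in the mock, a log2 fold change of -0.89 ± 0.36 (SE, unadjusted p = 0.0405). Here the second siRNA of each target gave the lower level. On the log2 scale the distance between the siRNAs of one target was larger than that of the nearer one from the mock.

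OSBPL8, a lipid transfer protein at contacts between the endoplasmic reticulum and the plasma membrane, stood at 132 and 118 CPM in the DICER1 libraries, 141 and 136 CPM in the DROSHA libraries and 181 CPM in the mock, a log2 fold change of -0.46 ± 0.11 (SE, unadjusted p = 0.0035). The kinase gene STK38L stood at 63.9 and 45.96 CPM in the DICER1 libraries, 62.7 and 57.8 CPM in the DROSHA libraries and 82.8 CPM in the mock. MZT1, a small subunit of gamma-tubulin complexes, stood at 125 and 119 CPM in the DICER1 libraries, 117 and 89.6 CPM in the DROSHA libraries and 158 CPM in the mock, and its lowest level was in DROSHA siRNA 2. All 4 siRNA libraries lay below the mock for the 3 genes. PLD6 (a mitochondrial outer membrane protein), IGFBP5 (an insulin-like growth factor binding protein), RAB38 (a small GTPase of lysosome-related organelles), PFKFB2 (which sets fructose 2,6-bisphosphate), PANX1 (a membrane channel) and AFF2 stood between 0.775-fold and 0.792-fold of the mock in their nearest library, and the next gene at 0.793-fold. By p, LRRC58, TROVE2 (an RNA-binding autoantigen) and the histone H3 methyltransferase gene SUV39H2 were added. SUV39H2 stood at 52.1 and 50.4 CPM in the DICER1 libraries, 59.01 and 58.3 CPM in the DROSHA libraries and 72.9 CPM in the mock, a log2 fold change of -0.41 ± 0.12 (SE, unadjusted p = 0.0101).

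**Figure D3:**
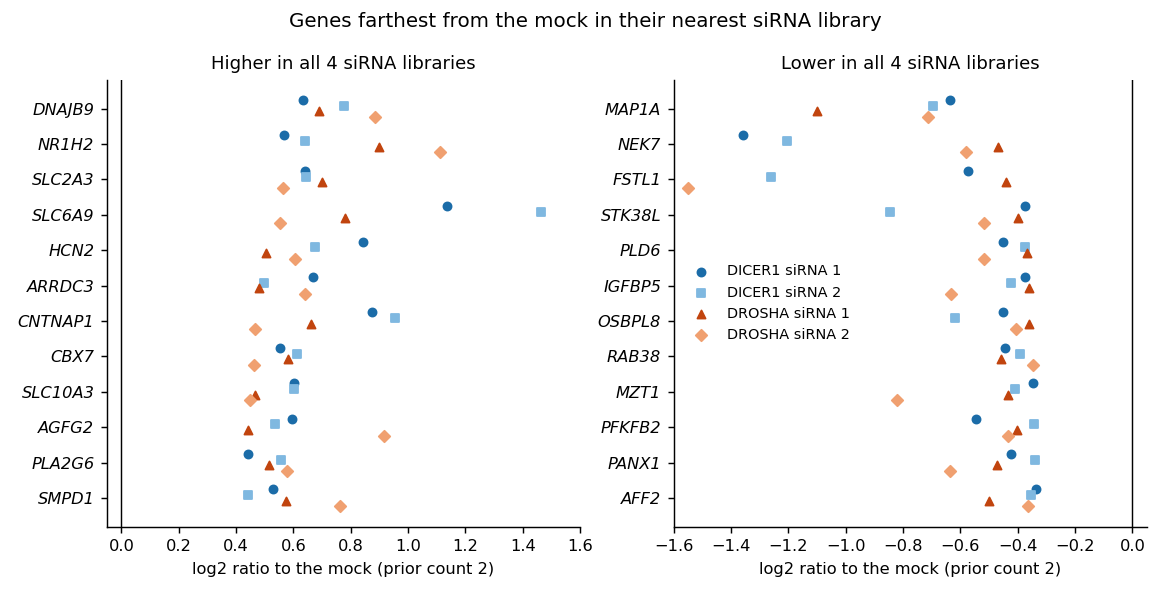
The 12 genes higher and the 12 lower than the mock in all 4 siRNA libraries with the largest nearest ratio, among genes that averaged 10 CPM or more. Each point is the log2 ratio of 1 siRNA library to the mock, with the zero line at the mock; the nearest point of each gene lies between 1.36-fold and 1.55-fold above it on the left and between 0.643-fold and 0.792-fold of it on the right.

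GC content moved with the side of the mock. Genes higher in all 4 libraries had a median transcript GC content of 53.7%, genes lower in all 4 one of 46.4%, and all tested genes 49.4%. Over 4 equal classes of genes of rising GC content, the share higher in all 4 was 10.5%, 17.1%, 21.7% and 28.3%, and the share lower was 24.7%, 20.6%, 18.4% and 12.6%. Across 12204 genes, Spearman's rho of the log2 ratio to the mock with GC content was 0.269 in DICER1 siRNA 1, 0.178 in DICER1 siRNA 2, 0.233 in DROSHA siRNA 1 and -0.031 in DROSHA siRNA 2, a description over genes that share libraries. The median 3' UTR was 856 bases in the higher genes and 1181 bases in the lower ones.

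The part of GC content in these results was not tested, but the sides were also taken after the trend with GC content and transcript length had been removed from each library, a step added after seeing the data. Then 2489 genes were higher and 2090 lower in all 4 libraries. All 31 genes named above for size or p, 16 upward and 15 downward, kept their side in all 4. They had been chosen for distance or p from the same ratios, and the library medians of the GC classes lay only between -0.065 and 0.062. Keeping their side was therefore likely from the outset and says little about GC content. Each list below is given as its counts with all 4 libraries, and then with the trend removed and without DROSHA siRNA 2. The shares of all tested genes to set beside them are 19.4% higher and 19.1% lower with all 4 libraries. Without DROSHA siRNA 2 they are 26.2% and 26.4%.

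**Figure D4:**
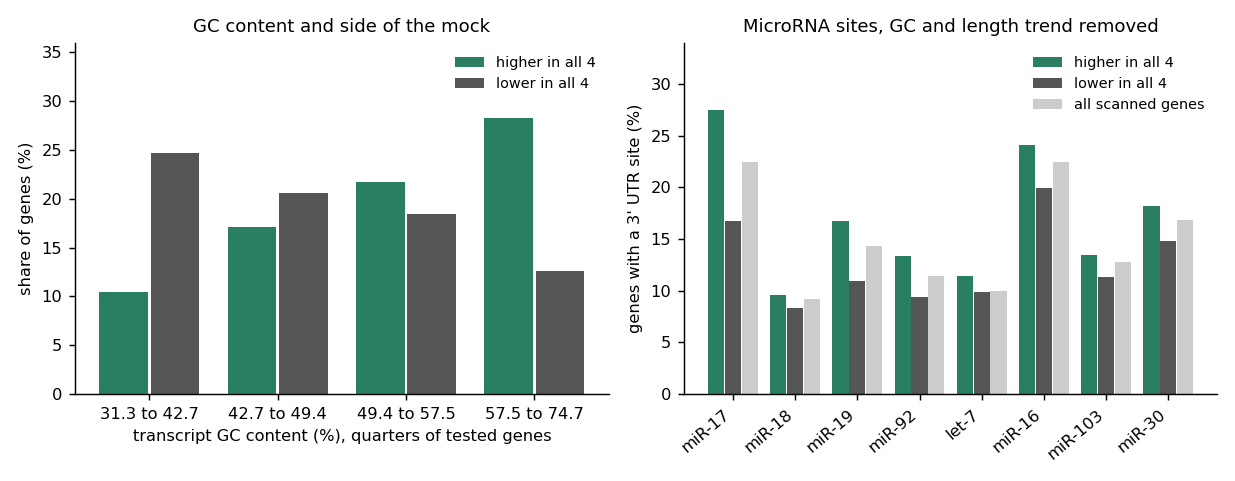
Left, the share of tested genes higher or lower than the mock in all 4 siRNA libraries in each of 4 classes of transcript GC content; the higher share runs between 10.5% and 28.3% and the lower share between 24.7% and 12.6%. Right, the share of scanned genes with a 3' UTR match to each microRNA seed among genes higher in all 4, lower in all 4 and all genes, after the trend with GC content and transcript length was removed; for miR-17 these are 27.5%, 16.7% and 22.5%.

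Of 17 regulators of the unfolded protein response and the linked ATF4 response, all tested, 8 were higher than the mock in all 4 libraries, 0 were lower and 9 were mixed, beside 19.4% and 19.1% of all genes, and the median log2 fold change was 0.24 beside -0.004 for all genes. With the GC and length trend removed 9 were higher and 0 lower, and without DROSHA siRNA 2 the remaining 3 libraries had 13 higher and 0 lower, beside 26.2% and 26.4% of all genes. ATF3, a stress-induced transcription factor, stood at 86.1 and 92.3 CPM in the DICER1 libraries, 82.8 and 80.7 CPM in the DROSHA libraries and 65.4 CPM in the mock, a log2 fold change of 0.39 ± 0.11 (SE, unadjusted p = 0.00839). PPP1R15A (GADD34), which directs a phosphatase to the translation factor eIF2 alpha, stood at 87.2 and 89.9 CPM in the DICER1 libraries, 90.2 and 80.6 CPM in the DROSHA libraries and 67.5 CPM in the mock, a log2 fold change of 0.36 ± 0.10 (SE, unadjusted p = 0.00903).

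The pseudokinase gene TRIB3, a target of ATF4 and CHOP, stood at 66.1 and 66.5 CPM in the DICER1 libraries, 58.4 and 61.5 CPM in the DROSHA libraries and 49.8 CPM in the mock. DDIT4, an inhibitor of mTORC1, stood at 44.6 and 43.9 CPM in the DICER1 libraries, 27.7 and 33.3 CPM in the DROSHA libraries and 25.1 CPM in the mock, higher in the DICER1 pair than in the DROSHA pair. The other 4 above the mock in every library were SESN2, CEBPB, EIF2AK3 (PERK) and XBP1, whose spliced mRNA encodes the factor that drives chaperone genes. XBP1 stood at 141 and 134 CPM in the DICER1 libraries, 125 and 114 CPM in the DROSHA libraries and 111 CPM in the mock. ATF4 itself was mixed, at 538 and 597 CPM in the DICER1 libraries, 522 and 477 CPM in the DROSHA libraries and 520.2 CPM in the mock. DDIT3 (CHOP) was mixed too, at 33.9 and 31.6 CPM in the DICER1 libraries, 27.7 and 21.5 CPM in the DROSHA libraries and 22.9 CPM in the mock. Both of these regulators were below the mock in DROSHA siRNA 2. Of the 3 sensors of the response, EIF2AK3 alone was above the mock in every library, at 19.5 and 20.4 CPM in the DICER1 libraries, 16.99 and 22.2 CPM in the DROSHA libraries and 16.4 CPM in the mock. ATF6 was mixed, at 94.2 and 104 CPM in the DICER1 libraries, 100.2 and 113 CPM in the DROSHA libraries and 96.2 CPM in the mock. ERN1 (IRE1 alpha) was mixed too, at 8.12 and 7.70 CPM in the DICER1 libraries, 5.97 and 5.48 CPM in the DROSHA libraries and 7.85 CPM in the mock, with both DROSHA libraries below the mock. The remaining mixed members were ATF5, CEBPG, CHAC1, CREB3 and NUPR1.

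A further list held chaperones of the endoplasmic reticulum and genes of the degradation pathway that clears misfolded proteins from it. Of 26 listed genes 25 were tested. In all 4 libraries 13 (52%) were higher than the mock and 3 (12%) lower, beside 19.4% and 19.1% of all genes. The median log2 fold change was 0.09. With the GC and length trend removed the counts were 14 and 1, and without DROSHA siRNA 2 they were 14 and 3. Beside DNAJB9, HERPUD1, a membrane part of the degradation machinery, stood at 114 and 111 CPM in the DICER1 libraries, 90.3 and 97.3 CPM in the DROSHA libraries and 71.2 CPM in the mock, a log2 fold change of 0.54 ± 0.15 (SE, unadjusted p = 0.00769). DERL3, a channel component of that pathway, stood at 48.04 and 54.5 CPM in the DICER1 libraries, 38.7 and 39.8 CPM in the DROSHA libraries and 32.2 CPM in the mock, a log2 fold change of 0.49 ± 0.20 (SE, unadjusted p = 0.0464). HSPA5 (BiP), the main chaperone of the compartment, stood at 599 and 499.7 CPM in the DICER1 libraries, 554 and 617 CPM in the DROSHA libraries and 472 CPM in the mock, a log2 fold change of 0.26 ± 0.11 (SE, unadjusted p = 0.0491). The libraries of the siRNA group all lay above the mock for these 3 genes, and DICER1 siRNA 2 came within 0.08 (log2) of it for HSPA5. The lectin chaperone genes differed: CANX was lower in all 4, at 1176 and 1227 CPM in the DICER1 libraries, 912 and 1143 CPM in the DROSHA libraries and 1233 CPM in the mock. CALR was mixed, at 1028 and 942 CPM in the DICER1 libraries, 1044 and 1026 CPM in the DROSHA libraries and 1019.9 CPM in the mock. EDEM3 and PDIA6 were the other members below the mock throughout.

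Promoters of these genes are known for the ER stress response element (ERSE), bound by ATF6 and XBP1 with NF-Y, and for a shorter form, ERSE-II. RefSeq promoters of build GRCh38.p14, from 250 bases before to 50 after each start site, were searched on both strands for CCAAT, then 9 bases, then CCACG (ERSE), and for ATTGG, 1 base, CCACG (ERSE-II). ERSE was found in 22 of 27305 promoters (0.0806%) and ERSE-II in 15 (0.0549%). The following stretches show the match in capitals with its flanks, 5' to 3' on the gene's strand, for 3 genes above the mock in all 4 libraries and for CANX, which lay below it. The matches start at -66 from the start site in HSPA5, at -52 in XBP1, at -117 in HERPUD1 and at -151 in CANX.
HSPA5, ERSE, chr9:125241361-125241439, minus strand: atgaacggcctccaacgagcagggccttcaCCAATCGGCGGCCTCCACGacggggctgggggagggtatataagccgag
XBP1, ERSE, chr22:28800573-28800651, minus strand: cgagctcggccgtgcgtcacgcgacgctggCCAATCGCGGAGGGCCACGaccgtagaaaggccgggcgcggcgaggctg
HERPUD1, ERSE-II, chr16:56931995-56932065, plus strand: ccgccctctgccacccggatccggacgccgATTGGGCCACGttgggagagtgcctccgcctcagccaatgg
CANX, ERSE, chr5:179698748-179698826, plus strand: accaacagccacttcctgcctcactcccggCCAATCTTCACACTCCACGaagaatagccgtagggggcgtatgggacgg

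Of 24 tested genes with either element 8 were higher in all 4 libraries and 2 lower, 4 and 1 for each element, beside 19.4% and 19.1% of all tested genes. The others, more than those on either side, were mixed. Among them were CALR, HSP90B1 and SERP1 with ERSE and SDF2L1 with ERSE-II. Besides HSPA5, XBP1 and HERPUD1, the higher ones were HYOU1, CRELD2, ALG12, RAD9A and SHCBP1, of which CRELD2 and ALG12 share 1 element between their divergent starts. A match is a description of letters in this window and says nothing about binding.

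A list of 19 tested genes that ATF4 is known to activate held mostly genes of amino acid supply, with VLDLR and STC2 among the exceptions. Of the 19, 5 (26.3%), VLDLR included, were higher than the mock in all 4 libraries and 1 (5.26%) lower, beside 19.4% and 19.1% of all genes. The median log2 fold change was 0.06. The library medians were 0.11 and 0.22 in the DICER1 pair and 0.04 and -0.02 in the DROSHA pair. With the GC and length trend removed 6 were higher and 0 lower, and without DROSHA siRNA 2, 11 were higher and 1 lower in the remaining 3. VLDLR, a lipoprotein receptor, stood at 16.8 and 17.1 CPM in the DICER1 libraries, 15.5 and 15.6 CPM in the DROSHA libraries and 12.01 CPM in the mock. SLC3A2, the heavy chain of amino acid transporters, stood at 318 and 313 CPM in the DICER1 libraries, 289.9 and 300.2 CPM in the DROSHA libraries and 264 CPM in the mock. ASNS, which makes asparagine, was mixed, at 195 and 219 CPM in the DICER1 libraries, 181 and 168 CPM in the DROSHA libraries and 169 CPM in the mock. Of 17 tested aminoacyl-tRNA synthetases, which charge tRNAs, 4 were higher in all 4 and 3 lower, with 5 and 2 once the trend was removed and 6 and 4 without DROSHA siRNA 2. The member with the smallest p was DARS, at 147 and 138 CPM in the DICER1 libraries, 132 and 151 CPM in the DROSHA libraries and 154 CPM in the mock.

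Immediate early genes, the transcription factors and regulators that cells switch on within minutes of a stimulus, lay above the mock more often than below it. Of 32 listed, 30 were tested, 11 (36.7%) were higher in all 4 libraries and 1 (3.33%) lower, beside 19.4% and 19.1% of all genes. The others, more than those on either side, were mixed. Among them were FOS, EGR1, JUNB and MYC, with log2 fold changes of 0.03, 0.03, 0.07 and 0.004. The median log2 fold change of the list was 0.14, with library medians between 0.10 and 0.22. With the GC and length trend removed 11 were higher and 2 lower, and without DROSHA siRNA 2, 13 were higher and 2 lower in the remaining 3. The zinc finger factor gene KLF4 stood at 21.6 and 20.8 CPM in the DICER1 libraries, 18.8 and 24.4 CPM in the DROSHA libraries and 14.5 CPM in the mock, a log2 fold change of 0.56 ± 0.17 (SE, unadjusted p = 0.0141). FOSB, an AP-1 subunit, stood at 12.3 and 14.8 CPM in the DICER1 libraries, 13.7 and 12.8 CPM in the DROSHA libraries and 9.75 CPM in the mock, a log2 fold change of 0.46 ± 0.18 (SE, unadjusted p = 0.035). JUN, another AP-1 subunit, stood at 296 and 321 CPM in the DICER1 libraries, 349 and 313 CPM in the DROSHA libraries and 271 CPM in the mock, a log2 fold change of 0.24 ± 0.10 (SE, unadjusted p = 0.0412). EGR2 rested on 10, 14, 15 and 12 counts in the siRNA libraries and 5 in the mock. ATF3 also belongs to this list, and the single member below the mock in all 4 was MCL1, an anti-apoptotic protein, at 388 and 389 CPM in the DICER1 libraries, 357 and 359 CPM in the DROSHA libraries and 397 CPM in the mock.

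Cholesterol and fatty acid synthesis genes, which SREBP factors drive, lay below the mock more often than above it. Of 35 listed, 31 were tested, 14 (45.2%) were lower in all 4 libraries and 1 (3.23%), MVK, was higher. For all genes the shares were 19.1% lower and 19.4% higher. The median log2 fold change of the list was -0.13. DROSHA siRNA 2 lay farthest down: the library medians were -0.05 and -0.08 in the DICER1 pair and -0.04 and -0.30 in the DROSHA pair. Without that library 15 were lower and 3 higher in the remaining 3, and the median of the mean log2 ratio was -0.08; with the GC and length trend removed, 17 were lower and 1 higher in all 4. PMVK, a mevalonate pathway kinase, stood at 32.1 and 30.8 CPM in the DICER1 libraries, 29.9 and 29.8 CPM in the DROSHA libraries and 38.3 CPM in the mock, a log2 fold change of -0.32 ± 0.11 (SE, unadjusted p = 0.0206). CYP51A1, the lanosterol demethylase, stood at 5.10 and 5.90 CPM in the DICER1 libraries, 5.40 and 4.59 CPM in the DROSHA libraries and 7.85 CPM in the mock, a log2 fold change of -0.58 ± 0.21 (SE, unadjusted p = 0.0285). INSIG1, which retains SREBP in the endoplasmic reticulum, stood at 128 and 103 CPM in the DICER1 libraries, 152 and 114 CPM in the DROSHA libraries and 154 CPM in the mock. Neither SREBF1 nor SREBF2, the genes of the factors themselves, lay on one side: both were lowest in DROSHA siRNA 2, SREBF2 at 211 and 218 CPM in the DICER1 libraries, 207 and 138 CPM in the DROSHA libraries and 209 CPM in the mock.

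Cytosolic heat shock chaperones also lay below the mock more often than above it, at small distances. Of 22 listed, 21 were tested, 8 (38.1%) were lower in all 4 libraries and 1 (4.76%), HSPB1, was higher. For all genes the shares were 19.1% lower and 19.4% higher. The median log2 fold change of the list was -0.09. The counts were 8 and 1 with the GC and length trend removed too, and 11 and 1 in the 3 libraries without DROSHA siRNA 2. DNAJA1, a J-domain co-chaperone, stood at 323 and 322 CPM in the DICER1 libraries, 335 and 319 CPM in the DROSHA libraries and 367 CPM in the mock, a log2 fold change of -0.18 ± 0.07 (SE, unadjusted p = 0.0295). HSP90AA1, the inducible form of HSP90, stood at 3293 and 3305 CPM in the DICER1 libraries, 3299 and 3318 CPM in the DROSHA libraries and 3508 CPM in the mock, a log2 fold change of -0.09 ± 0.03 (SE, unadjusted p = 0.0376). The 4 siRNA libraries differed little from one another for both genes and lay under the mock.

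Of 78 listed genes of cytosolic ribosomal proteins 76 were tested, 30 (39.5%) were higher than the mock in all 4 libraries and 10 (13.2%) lower. The others were mixed, and the shares of all genes were 19.4% and 19.1%. The median log2 fold change of the list was 0.05. With the GC and length trend removed 33 were higher and 4 lower, and without DROSHA siRNA 2 the counts were 45 and 11. RPL15 stood at 805 and 829 CPM in the DICER1 libraries, 824 and 793 CPM in the DROSHA libraries and 745 CPM in the mock. Many of these genes have near-identical pseudogenes that can share reads, so single values are uncertain. No member was past a log2 ratio of 0.32 in every library.

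Nuclear subunits of oxidative phosphorylation had 7 of 69 tested members higher in all 4 libraries and 10 lower, with a median log2 fold change of -0.01. The counts were 7 and 10 with the GC and length trend removed and 10 and 14 without DROSHA siRNA 2. DNA replication genes had 7 of 35 higher and 6 lower, with a median of 0.002, then 6 and 6 with the trend removed and 13 and 8 without that library. Lysosome and autophagy genes had 8 of 33 higher and 4 lower, with a median of 0.04, then 9 and 3, and 8 and 7. None of these 3 lists had a median farther than 0.04 from 0, beside -0.004 for all genes. Genes of hypoxia and glycolysis had 4 of 27 higher and 6 lower, with a median of -0.04, then 5 and 6 with the trend removed and 7 and 9 without DROSHA siRNA 2.

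p53 target genes had 7 of 25 (28%) higher in all 4 libraries and 6 (24%) lower, beside 19.4% and 19.1% of all genes. Their median log2 fold change was 0.06. The counts were 7 and 6 with the trend removed. Without DROSHA siRNA 2 they were 8 (32%) and 7 (28%), beside 26.2% and 26.4% of all genes. BBC3 (PUMA), a pro-apoptotic member, stood at 35.99 and 38.5 CPM in the DICER1 libraries, 29.6 and 29.8 CPM in the DROSHA libraries and 24.6 CPM in the mock. RRM2B, a ribonucleotide reductase subunit, lay below the mock at 43.98 and 43.3 CPM in the DICER1 libraries, 51.2 and 48.1 CPM in the DROSHA libraries and 58.3 CPM in the mock. Of 34 interferon-stimulated genes 19 were tested, 3 (15.8%) were higher in all 4 and 2 (10.5%) lower, with a median of 0.02. With the trend removed 1 was higher and 2 lower, and without DROSHA siRNA 2, 6 were higher and 4 lower. IFIT5, an RNA-binding protein and the member with the smallest p, was lower at 43.6 and 39.5 CPM in the DICER1 libraries, 46.3 and 39.5 CPM in the DROSHA libraries and 53.8 CPM in the mock. NF-kappaB response genes had 3 of 12 tested members (25%) higher and 2 (16.7%) lower, and 3 and 1 with the trend removed. Their median log2 fold change was 0.12, but the library medians were 0.17 and 0.13 in the DICER1 pair and -0.02 and 0.02 in the DROSHA pair, and without DROSHA siRNA 2 the counts were 4 and 2 and the median of the mean log2 ratio was -0.005.

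Mitotic genes had 2 of 42 members (4.76%) higher in all 4 libraries and 6 (14.3%) lower, and 7 and 3 with the GC and length trend removed. The shares with all 4 libraries were below the 19.4% and 19.1% of all genes, so no direction is read from them. Without DROSHA siRNA 2, 4 members (9.52%) were higher and 18 (42.9%) lower, beside 26.2% and 26.4% of all genes. Their median GC content was 41.6%, beside 49.4% for all tested genes. MAD2L1, a spindle checkpoint protein, was lower in all 4 but mostly in the DICER1 pair, at 117 and 85.2 CPM in the DICER1 libraries, 177 and 175 CPM in the DROSHA libraries and 181 CPM in the mock. Neuronal genes split by target: the pooled median was 0.26, but the library medians were 0.42 and 0.77 in the DICER1 pair and -0.001 and -0.09 in the DROSHA pair, and 3 of 27 tested members were higher in all 4, with 3 lower. With the trend removed 4 were higher and 3 lower, and without DROSHA siRNA 2, 9 were higher and 3 lower. SNAP25, a synaptic vesicle fusion protein, was among the 3 higher in all 4 libraries, at 7.72 and 13.2 CPM in the DICER1 libraries, 2.53 and 4.84 CPM in the DROSHA libraries and 2.50 CPM in the mock.

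**Figure D5:**
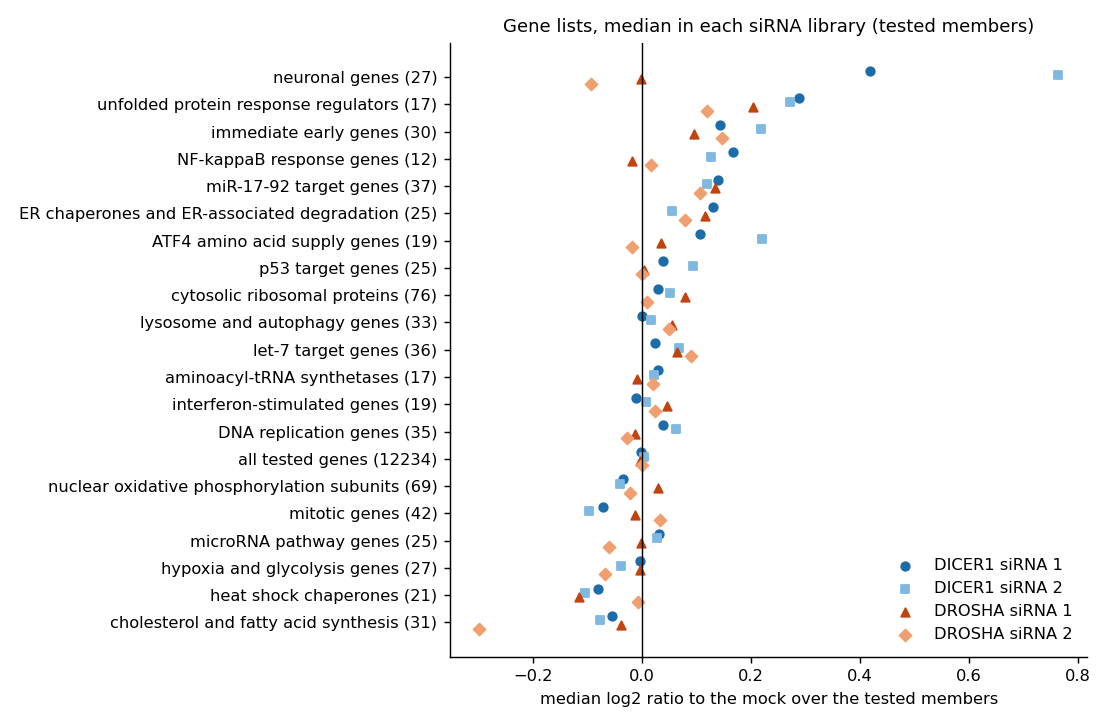
Median log2 ratio to the mock over the tested members of each of 20 gene lists, and over all 12234 tested genes, in each siRNA library; the number of tested members is in brackets. Unfolded protein response regulators lie between 0.12 and 0.29 in all 4 libraries and miR-17-92 targets between 0.11 and 0.14, while neuronal genes lie between -0.09 and 0.77.

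Reported targets of the miR-17-92 cluster, a group of microRNAs abundant in HEK293 cells, lay above the mock more often than below it. Of 38 listed, 37 were tested, 17 (45.9%) were higher in all 4 libraries and 2 (5.41%) lower, beside 19.4% and 19.1% of all genes. The median log2 fold change was 0.11, with library medians of 0.14, 0.12, 0.14 and 0.11. The counts were 17 and 2 with the GC and length trend removed too. Without DROSHA siRNA 2, 20 were higher and 4 lower in the remaining 3. Besides MINK1, FYCO1, an adaptor for autophagosome transport, stood at 66.9 and 70.5 CPM in the DICER1 libraries, 69.2 and 72.03 CPM in the DROSHA libraries and 53.8 CPM in the mock, a log2 fold change of 0.37 ± 0.10 (SE, unadjusted p = 0.00602). RBL2 (p130), a pocket protein that restrains the cell cycle, stood at 149 and 149 CPM in the DICER1 libraries, 146 and 145 CPM in the DROSHA libraries and 120.2 CPM in the mock, a log2 fold change of 0.29 ± 0.08 (SE, unadjusted p = 0.00842). TXNIP, an inhibitor of thioredoxin, stood at 37.7 and 48.97 CPM in the DICER1 libraries, 37.5 and 41.6 CPM in the DROSHA libraries and 29.6 CPM in the mock. KLF4 and VLDLR, named in other lists, belong to this one too, and the 2 members lower in all 4 were STAT3 and SMAD4.

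Of 36 tested let-7 target genes 11 (30.6%) were higher in all 4 libraries and 2 (5.56%) lower, beside 19.4% and 19.1% of all genes. Their median log2 fold change was 0.03. The counts were then 14 and 2 with the GC and length trend removed and 13 and 4 without DROSHA siRNA 2. ARID3B, a DNA-binding protein, stood at 34.6 and 37.2 CPM in the DICER1 libraries, 34.6 and 39.9 CPM in the DROSHA libraries and 29.5 CPM in the mock. HIC2, a transcriptional repressor, stood at 73.4 and 73.9 CPM in the DICER1 libraries, 75.4 and 78.02 CPM in the DROSHA libraries and 65.5 CPM in the mock. NRAS, a small GTPase that is a let-7 target, lay below the mock instead, at 177 and 142 CPM in the DICER1 libraries, 156 and 168 CPM in the DROSHA libraries and 198 CPM in the mock. Genes of the microRNA pathway itself, 25 of 34 listed being tested, had 3 members higher, among them DGCR8, and 5 lower. With the trend removed 4 were higher and 3 lower, and without DROSHA siRNA 2, 6 were higher and 6 lower. The shares with all 4 libraries were 12% and 20%, beside 19.4% and 19.1% of all genes. Without DROSHA siRNA 2 they were 24% and 24%, beside 26.2% and 26.4%. These shares were near or below those of all genes, so the list had no direction of its own. DDX17, a helicase of the DROSHA complex, was among the lower ones at 734 and 837 CPM in the DICER1 libraries, 820.1 and 632 CPM in the DROSHA libraries and 901 CPM in the mock.

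Seed matches were then counted in the 3' UTRs of 11780 genes for 8 microRNA families, as a match to bases 2 to 8. The mature sequences come from RefSeq, build GRCh38.p14, and are shown for the families of the miR-17-92 cluster, since the miR-17 and miR-19 matches gave the widest gaps between sides with the GC and length trend removed, and for let-7 beside them. Capitals mark the seed.
hsa-miR-17-5p, chr13:91350618-91350640: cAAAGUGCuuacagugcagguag
hsa-miR-20a-5p, chr13:91351072-91351094: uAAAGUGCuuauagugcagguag
hsa-miR-18a-5p, chr13:91350756-91350778: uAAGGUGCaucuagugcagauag
hsa-miR-19a-3p, chr13:91350939-91350961: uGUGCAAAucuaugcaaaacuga
hsa-miR-92a-3p, chr13:91351361-91351382: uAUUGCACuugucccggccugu
hsa-let-7a-5p, chr9:94175962-94175983: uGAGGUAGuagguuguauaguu

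miR-17-5p and miR-20a-5p share 1 seed, miR-18a-5p has a similar seed of its own, and miR-19a-3p, miR-92a-3p and let-7a-5p have unrelated ones. Genes with the miR-17 seed match GCACTTT made up 24.7% of the genes higher in all 4 libraries, 20.2% of those lower in all 4 and 22.5% of all scanned genes. With the GC and length trend removed, the shares were 27.5%, 16.7% and 22.5%, over 2390 higher and 1996 lower genes whose median 3' UTRs were 1048.5 and 1042.5 bases. In that form the miR-19 match TTTGCAC was in 16.7% of higher genes, 10.9% of lower genes and 14.3% of all, and the miR-92 match GTGCAAT in 13.4%, 9.42% and 11.4%. The miR-16 match was in 24.1% of higher genes, 19.9% of lower genes and 22.5% of all, and the miR-30 match in 18.2%, 14.8% and 16.8%. The other families had gaps of a few points, with the let-7 match in 11.4% of higher genes, 9.92% of lower genes and 10% of all, the miR-18 match in 9.58%, 8.37% and 9.23%, and the miR-103 match in 13.5%, 11.3% and 12.8%.

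The miR-17 gap held within classes of 3' UTR length without any trend removed, at 7.01% of higher and 1.75% of lower genes with UTRs up to 611 bases, 22.2% and 13.9% between 612 and 1834 bases, and 52.1% and 40.2% above that. In log2 ratio the gap was small. With the trend removed, genes with the miR-17 match had a median above that of genes without by 0.025 and 0.027 in the DICER1 pair and by 0.030 and 0.034 in the DROSHA pair. Without that step it was 0.003 and 0.014 in the DICER1 pair and 0.003 and 0.036 in the DROSHA pair. Before that step the gaps of the other families were smaller or turned round. The miR-19 match was then in 15.2% of higher and 13.2% of lower genes, the miR-16 match in 24% and 21.4%, and the let-7 match in 10.7% and 10.4%. The miR-92 match was in 11.5% and 11.6%, the miR-103 match in 12.6% and 12.5%, and the miR-18 match in 8.69% and 9.03%. For miR-30 the shares ran the other way, with the match in 14.6% of higher and 18.4% of lower genes. Gaps within the classes of UTR length were not particular to miR-17. The miR-19, miR-92, let-7, miR-16 and miR-103 matches were also more frequent in higher than in lower genes in every class. Between 612 and 1834 bases the miR-19 match was in 14.5% and 8.02%, and the miR-16 match in 23.7% and 16.3%. For let-7 the shares up to 611 bases were 4.16% and 1.02%. The miR-18 and miR-30 matches did not keep that order in every class. These shares describe genes that share the same 5 libraries and the same mock, and no test was made of them.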

How the data were processed

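Members and gene lists were chosen with earlier results of these data known. The values are raw counts of reads per gene symbol in 1 table deposited by the authors. The submitters' processing notes name hg19 and the tools CASAVA 1.8.2, STAR, HTSeq and edgeR, without roles or order. Strand use in counting was not given in the sources used here; overlapping or antisense genes are therefore not separable. A filter of 1 CPM in at least 2 of 5 libraries left 12234 genes with 99.9% of the reads. They were scaled with TMM and tested by quasi-likelihood F tests in edgeR 4.0.16 (R 4.3.3), the 4 siRNA libraries forming 1 group and the mock the other, with no covariate and a call at a Benjamini-Hochberg adjusted p under 0.05. The common biological coefficient of variation came to 9.62%. Each standard error is the log2 fold change over the square root of F. The side of the mock was read from log2 CPM with a prior count of 2. DICER1 was compared with DROSHA siRNA in a 3-group edgeR fit with 2 residual degrees of freedom.

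Named genes are DICER1, DROSHA and DGCR8; in each direction, since fewer than 5 genes were called, the 12 with the largest nearest ratio and the 6 with the smallest unadjusted p among genes that averaged 10 CPM or more; and up to 4 members of each list with the smallest p. Some genes that rule would name are not reported here. The genes past 2-fold and list members outside that rule were picked with their values in view. Transcript GC content, length and 3' UTRs came from GENCODE 29 and covered 99.8% of tested genes; UTRs of at least 50 bases were scanned. Counting error limits precision at these depths, and reads without molecular identifiers are not independent molecules. The steps were tested on simulated data. Alternatives were DESeq2 1.42.0, edgeR's likelihood ratio test, other scalings, filters and prior counts, each library or pair left out, and, added after seeing the data, removal of the GC and length trend and list counts without DROSHA siRNA 2.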

Additional observations from a re-analysis of the deposited data

Results flagged for a closer look

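The targeted genes differed between the siRNA pairs: in edgeR's test of DICER1 against DROSHA siRNA libraries the adjusted p was 0.00175 for DICER1 and 0.000369 for DROSHA. For 3 lists the median lay on opposite sides of the mock in the 2 pairs, a difference that was not tested. Neuronal genes had library medians higher in the DICER1 than in the DROSHA pair by 0.639 on the log2 scale, DNA replication genes by 0.071 and microRNA pathway genes by 0.06.

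In 4 of 107 named genes and 1 of 20 lists, 1 of the 4 siRNA libraries lay apart from the others, by the share of the whole range that its gap to the nearest library took; chance alone flags about 1 in 20 such groups. For AFF2 the share was 0.835, with the lowest level, 13.9 CPM, in DROSHA siRNA 1. SLC38A2, a glutamine transporter, had 0.882, with DROSHA siRNA 2 nearest to the mock. RAB3A, a synaptic vesicle GTPase, had 0.854, with the highest level in DICER1 siRNA 2, and VEGFA, a growth factor of blood vessels, had 0.879, also from DICER1 siRNA 2. The median of the cholesterol and fatty acid synthesis list had 0.858, with DROSHA siRNA 2 lowest.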

How the results depend on the processing

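Calls stayed at 0 in both directions with RLE or library-total scaling, other filters, the likelihood ratio test, DESeq2, the GC and length trend removed and any 1 siRNA library left out. With 1 library left out and the others scaled anew, 2804 to 3221 genes were higher and 2856 to 3246 lower in the remaining 3, and 195 to 259 and 126 to 182 past a log2 ratio of 0.32. The 3-group fit called 1 gene, DROSHA, lower (log2 fold change -1.09, edgeR adjusted p = 0.0343). With the DICER1 libraries alone 7 genes were called lower (DICER1, VMA21, NEK7, KCTD12, TNPO1, FAM91A1 and TMEM33), 4488 were higher and 4454 lower in both, and 533 and 405 past 0.32; with the DROSHA libraries alone 1 was called lower (DROSHA), 3930 were higher and 3887 lower, and 329 and 324 past 0.32. Fewer libraries must share a side there. DROSHA turned to 0.017 with the DICER1 libraries alone and DICER1 to 0.341 with the DROSHA libraries alone, each being the pair that did not target it. Without a filter on low counts 349 genes were past 0.32 upward and 452 downward, so the upward lean did not hold once genes of the fewest reads were counted. At a mean of at least 5 CPM the lean was upward, with counts of 67 and 24, so the larger distances sit mostly in genes of few reads. Scaling by library totals gave 2736 higher and 1934 lower genes and moved the median of all genes to 0.014. No paired analysis was possible because the mock has 1 library and siRNA 1 and 2 of one target are different siRNAs from those of the other. The mock was not replicated, so no setting here shows how much of a ratio comes from it.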
